A study of Mus musculus with 11 samples.

Results

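Matrix metalloproteases, ADAM and ADAMTS proteases and the TIMP inhibitors were followed in pieces of the mouse mandibular arch, the facial process that forms the lower jaw and part of the tongue. The members were all genes with a single symbol on the array that names an Mmp, Adam or Adamts gene by number, or Timp1 to Timp4, and each was read from its probe set with the highest mean signal. This gave 60 members of 18194 genes on the array, namely 18 Mmp, 23 Adam, 15 Adamts and 4 Timp genes. RNA came from untreated embryos of ICR mice, an outbred strain, on 11 Affymetrix arrays in 6 groups. Lateral and medial tissue had 1 array each at E9.7 and 3 arrays each at E10.5. Medial tissue also had 2 arrays at E11.5 and 1 at E14.5. Medial tissue is the distal end of the arch and lateral tissue the rest of it. At E14.5 the labels name tongue, taken from its anterior end, and stage cannot be told apart from dissection in that array. RNA of 40 embryos was pooled per time point, and nothing states that the arrays of a group came from separate pools, so p-values measure only the spread between arrays, which may be technical. The series set out to compare expression in the medial and lateral pieces.

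These proteins remodel the space around cells. Matrix metalloproteases are zinc enzymes, secreted or anchored in the membrane, that cut collagens and other matrix proteins, and they are made as inactive precursors. ADAM proteases sit in the membrane and many of them release the outer parts of ligands and receptors, among them Notch and growth factors of the EGF family. ADAMTS proteases are secreted and cut procollagens and the proteoglycans versican and aggrecan. TIMPs bind the active site of these enzymes and block it, and the balance of enzyme and inhibitor sets how fast embryonic matrix turns over.

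Signals are deposited log2 values after quantile normalization. Replicate 1 of the medial groups of E10.5 and E11.5 had a median deposited value of 2.37 and 2.47, against 5.20 to 5.73 on the other 9 arrays. Arrays were also clustered by the signal of spiked-in control probe sets and cut into 4 groups, a number that was set and not found. Both E9.7 arrays sat in the largest of these with replicate 1 of the lateral E10.5 group and replicate 2 of the medial E10.5 and E11.5 groups. The remaining lateral arrays of E10.5 grouped with medial replicate 3. The arrays of low signal formed a group of their own, as did the E14.5 array. The number of arrays limits the precision. All 7 arch mesenchyme markers (Prrx1, Prrx2, Twist1, Dlx2, Dlx5, Hand2 and Msx1) reached the filter level of 4.86 on at least 1 array, and so did the 8 epithelial and 7 endothelial markers. A fall in signal from fewer cells of a type cannot be told apart from less RNA per cell in such bulk tissue.

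Part of the family stayed below the filter level throughout. The filter level is the 50th percentile of all values and does not mark whether a gene is off. Testing required that it was reached on 2 or more of the 8 arrays that have a replicate. By this filter 37 members were tested: 8 of 18 Mmp, 13 of 23 Adam, 13 of 15 Adamts and 3 of 4 Timp genes. A member that passed only through a group where it is high had to differ, so the 37 are not all members. Among the members called, Adamts3 was such a one, through lateral tissue of E10.5. On every array, 28 members reached the level, and 21 reached it on none. The Adam genes that never reached it were Adam2, Adam3, Adam5, Adam7, Adam18, Adam24, Adam25, Adam28, Adam32 and Adam34, at 2.05 to 4.05 on all arrays. Most of these are known from testis or epididymis. Timp4, another secreted inhibitor, was at 3.37 in lateral and 3.96 in medial tissue at E9.7. At E10.5 it was at 4.12, 3.91 and 4.04 in lateral and 4.30, 3.94 and 3.76 in medial tissue, and later at 3.82 and 3.86 (E11.5) and 4.57 (E14.5), never at the filter level.

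**Figure D1:**
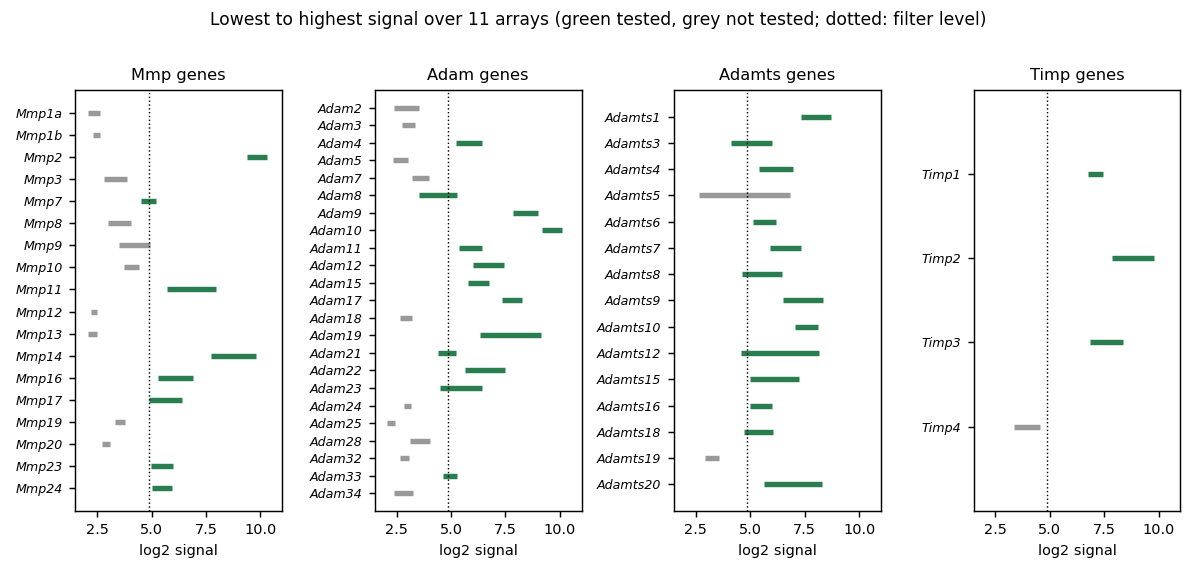
Lowest to highest log2 signal of each of the 60 members over 11 arrays, by family; green bars mark the 37 tested members, grey bars the 23 others, and the dotted line the filter level of 4.86. Levels are read against that line within a gene and not between genes. The bars of untested Mmp genes lie wholly below the line except that of Mmp9, which reached it on 1 array.

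The Mmp genes that stayed below the filter level were largely neighbours in the genome. Mmp13, Mmp12, Mmp1b, Mmp3, Mmp1a, Mmp10, Mmp8, Mmp20 and Mmp7 lie together on chromosome 9, where they hold positions 15 to 24 in the order of protein-coding genes of RefSeq's GRCm38.p6. They encode collagenases, stromelysins, matrilysin, macrophage elastase and the enamel protease. Of these 9 genes, 8 reached the filter level on no array, with signals of 2.06 to 4.42, and Mmp7 reached it on 4 arrays (4.51 to 5.22). Mmp13, the collagenase of late cartilage and bone, was at 2.10 to 2.50 on all 11 arrays, E14.5 included. Mmp9, the gelatinase of osteoclasts and other blood-derived cells, lies elsewhere and ranged from 3.52 to 4.94, its highest value being on the low-signal array of E11.5.

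The upstream sequences of the untested and the tested members differed in the motifs they held, and most of the untested ones came from that stretch of chromosome 9. RefSeq's promoter table (GRCm38.p6) matched 33 of 60 members, and the 250 bases before each annotated start were searched on both strands for the AP-1 element TGANTCA, the GC box GGGCGG and the TATA box TATAAA. AP-1 is the Fos and Jun factor through which growth factors and inflammation are known to switch on collagenase and stromelysin genes. No matches of different motifs overlapped in the members. An AP-1 match was found in 8 of 11 untested members and in 2 of 22 tested ones. It was found in 7.82% of all 27025 genes of the table, in 9.96% of array genes that were not tested and in 5.07% of those that were. A TATA box was found in 6 of the 11 untested members and in 2 of the 22 tested ones. The TATA box share was 14.3% of all genes of the table, 15.6% of array genes not tested and 7.89% of those tested. In the row on chromosome 9, 8 of 9 genes had an AP-1 match and 7 of 9 also had a TATA box, with Mmp8 having neither and Mmp12 only the AP-1 match, at 1 of its annotated starts. Mmp7, the tested gene of the row, had both motifs. Outside the row an AP-1 match was found only in Adam25, untested, and Adam19, tested. The untested members with a promoter outside the row were Adam25, Adam34 and Timp4. Test status therefore cannot be told apart from membership of the row in these counts. The GC box was found in none of the 11 untested members and in 15 of the 22 tested ones, beside 31.5% and 64.3% of array genes that were not tested and tested. A match is a description of the letters and no evidence of binding.

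The sequences of 6 members that hold such matches are given as examples. The first 3 are from untested members of the row on chromosome 9 and the others from tested members described below. They do not stand for all tested members. Of the members that passed a test below, 9 had a promoter, and 5 of these held a GC box. Adam19, Mmp23 and Adamts12 held none. Capitals mark matches to the AP-1 element and TATA box in the first 3, and to the GC box in the others. The sequences run 5′ to 3′ toward the start site, from RefSeq's GRCm38.p6: Mmp13 at chr9:7272264-7272513, Mmp3 at chr9:7445572-7445821, Mmp10 at chr9:7502092-7502341, Mmp14 at chr14:54431348-54431597, Adamts9 at chr6:92943535-92943784 and Timp3 at chr10:86300162-86300411, all on the plus strand except Adamts9 on the minus strand.
Mmp13: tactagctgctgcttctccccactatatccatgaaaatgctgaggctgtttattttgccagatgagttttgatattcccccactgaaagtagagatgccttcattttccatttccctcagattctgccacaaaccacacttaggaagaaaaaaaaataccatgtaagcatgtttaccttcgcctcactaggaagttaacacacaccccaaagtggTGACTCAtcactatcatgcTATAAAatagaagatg
Mmp3: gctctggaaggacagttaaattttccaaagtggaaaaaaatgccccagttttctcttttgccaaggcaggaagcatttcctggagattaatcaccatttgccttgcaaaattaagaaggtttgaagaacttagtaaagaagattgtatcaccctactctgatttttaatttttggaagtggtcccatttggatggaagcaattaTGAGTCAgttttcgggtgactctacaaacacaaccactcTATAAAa
Mmp10: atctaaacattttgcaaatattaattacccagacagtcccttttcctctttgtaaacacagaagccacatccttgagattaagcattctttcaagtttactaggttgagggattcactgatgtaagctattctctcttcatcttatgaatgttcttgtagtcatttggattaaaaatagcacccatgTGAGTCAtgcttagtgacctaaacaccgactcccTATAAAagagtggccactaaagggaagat
Mmp14: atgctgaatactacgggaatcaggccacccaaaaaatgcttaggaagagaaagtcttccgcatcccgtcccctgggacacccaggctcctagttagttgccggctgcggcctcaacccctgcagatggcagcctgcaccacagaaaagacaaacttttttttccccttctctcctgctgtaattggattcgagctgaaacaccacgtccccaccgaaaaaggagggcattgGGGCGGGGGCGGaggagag
Adamts9: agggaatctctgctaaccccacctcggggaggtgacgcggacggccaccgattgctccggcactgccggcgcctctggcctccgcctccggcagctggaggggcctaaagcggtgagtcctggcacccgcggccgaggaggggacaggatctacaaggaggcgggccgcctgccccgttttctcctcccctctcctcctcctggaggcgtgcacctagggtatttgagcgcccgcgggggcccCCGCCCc
Timp3: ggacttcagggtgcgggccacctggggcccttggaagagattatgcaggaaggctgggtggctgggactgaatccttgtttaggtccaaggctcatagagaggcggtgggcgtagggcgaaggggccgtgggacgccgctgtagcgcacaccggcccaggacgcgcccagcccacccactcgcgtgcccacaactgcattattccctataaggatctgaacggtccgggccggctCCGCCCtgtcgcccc

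Counted from the start site as the first base of the match, Mmp13 had its AP-1 match at -35 and its TATA box at -16. Those of Mmp3 stood at -46 and -7, and those of Mmp10 at -63 and -29. Mmp14 had GC boxes at -19 and -13, Adamts9 at -7 and Timp3 at -15.

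**Figure D2:**
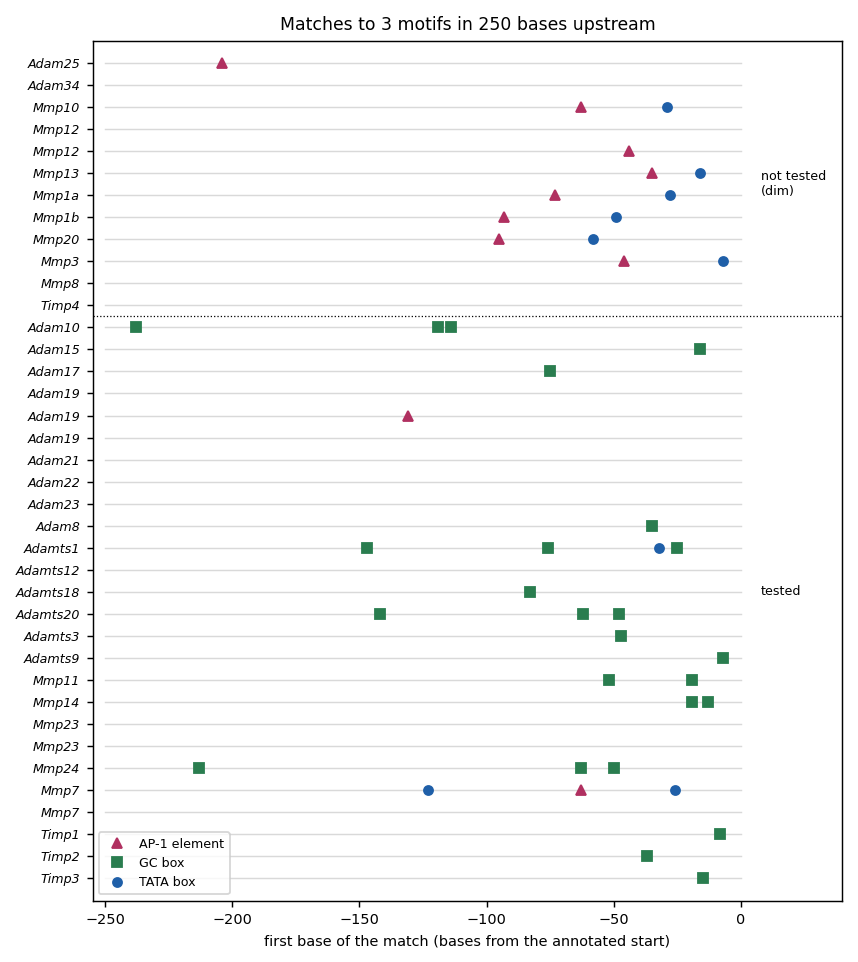
Matches to the AP-1 element, GC box and TATA box in the 250 bases upstream of the annotated starts of 33 members, as distance of the first base of the match from the start; genes with several starts have a line each. Untested members are above the dotted line and tested members below it. AP-1 matches stand in 8 of the 11 untested members, all but Adam25 from the row on chromosome 9. GC boxes stand in 15 of the 22 tested members.

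At E10.5 some of the proteases and inhibitors differed between medial and lateral tissue. Among those that passed the test, Adamts and Timp genes stood on either side, and 1 Mmp and 1 Adam gene were higher in medial tissue. Medial tissue was higher in Adamts9, Adamts18, Adam19, Mmp23 and Timp2, and lateral tissue in Adamts3, Adamts12 and Timp3. The test was limma with Benjamini-Hochberg adjustment over all tested genes, and a call is an adjusted p under 0.05. By it 8 of 37 tested members (21.6%) passed, beside 4.63% of all 11968 tested genes. They were 5 higher and 3 lower in medial tissue, beside 2.82% and 1.80% of all genes. Of the 3, Adamts3 passed the filter only through lateral tissue, where it was high. At an unadjusted p under 0.05 there were 16 members (43.2%), beside 16.1% of all genes. Medial and lateral arrays did not overlap for 15 of the 37 members (40.5%), beside 25.0% of all tested genes. The median difference was 0.01 over the members and -0.01 over all tested genes, and the median size of the difference, regardless of sign, was 0.44 and 0.15. With the deposited values left unscaled, the median difference of all genes was -1.03 and no member passed. Fewer members passed without lateral replicate 1 (2), 2 (2) or 3 (3) or medial replicate 2 (4) or 3 (5).

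Adamts9, a secreted protease that cuts versican and is needed in palate and other craniofacial tissue, had the largest difference. Its log2 signal was 7.93, 7.95 and 8.33 in medial tissue and 6.51, 6.61 and 6.78 in lateral tissue at E10.5. The medial arrays all lay more than 1 log2 unit above the lateral ones. The difference between the 3 arrays a side was 1.43 ± 0.16 in log2, with the standard error of the fit to all 6 groups (limma adjusted p = 0.0013). It was 1.44 and 1.64 within the control-signal groups that held both tissues. Leaving out any array kept the call (adjusted p between 0.00251 and 0.00962), and the deposited values gave 0.38 (adjusted p = 0.761). Its 2 other probe sets differed by 0.97 and 0.13, with arrays that overlapped. In later medial tissue Adamts9 stayed within or below the E10.5 medial range, at 7.85 and 8.31 at E11.5 and 7.58 at E14.5.

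Adamts18, a secreted protease with roles in eye, lung and kidney development, had 5.80, 5.56 and 5.69 in medial tissue and 4.95, 4.69 and 5.06 in lateral tissue. Medial arrays were all higher, by 0.79 ± 0.15 (adjusted p = 0.0148), with lateral signal around the filter level. Both other probe sets of this gene never reached the level. At later stages it was at 5.64 and 6.01 (E11.5) and 5.78 (E14.5). The call was lost without lateral replicate 2 (0.68, adjusted p = 0.0766), with centred arrays (0.75, adjusted p = 0.107) and with the mean of its probe sets (0.66, adjusted p = 0.194), and the sign turned on the deposited values (-0.38).

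Adam19, a membrane protease of neural crest and heart cushion tissue that can release neuregulins, was at 7.59, 7.58 and 7.62 in medial tissue. In lateral tissue it was at 6.86, 6.96 and 6.78, so that the medial arrays were all above the lateral ones. The difference was 0.73 ± 0.13 (adjusted p = 0.014), and its other probe set also differed without overlap, by 0.49. The adjusted p was 0.0551, 0.0502 and 0.0794 without lateral replicate 1, 2 and 3 and 0.0521 without medial replicate 2. It was 0.0653 with centred arrays and 0.0562 with the mean of its probe sets. The sign turned on the deposited values (-0.31).

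Mmp23, a metalloprotease with an unusual membrane anchor, had 5.64, 5.65 and 5.97 in medial tissue and 5.01, 5.22 and 5.25 in lateral tissue. The groups did not overlap and the difference was 0.59 ± 0.13 (adjusted p = 0.0412). A second probe set gave 0.64, also without overlap. Lateral and medial values were 4.96 and 5.30 at E9.7, and medial values later were 5.94 and 5.74 (E11.5) and 5.96 (E14.5). The call was lost without lateral replicate 1 (adjusted p = 0.141), 2 (0.129) or 3 (0.114) and without medial replicate 2 (0.0816) or 3 (0.0991). It was also lost with centred arrays (adjusted p = 0.396), without the filter (0.0635) and with the trend and robust options (0.0885), and on the deposited values the sign turned (-0.57).

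Mmp14, the membrane metalloprotease that cuts collagen and activates the Mmp2 precursor, did not pass with its chosen probe set. Its signal was 8.62, 9.30 and 9.14 in medial tissue and 8.23, 8.15 and 8.24 in lateral tissue, without overlap (0.81 ± 0.21, adjusted p = 0.0748). Medial replicate 1, of low signal, was the medial array nearest to the lateral ones. All 3 of its probe sets kept medial and lateral arrays apart, with differences of 0.81, 0.91 and 0.67. It passed when arrays were centred, when probe sets were averaged, with array weights, with the replicate block and with control-signal group as a term. Fits restricted to both groups, or made with limma's trend and robust options, called it too. It also passed without medial replicate 1 and without both arrays of low signal. Mmp14 did not pass on the deposited values, without the filter or with a filter at the 60th percentile. Nor did it pass without lateral replicate 1, 2 or 3 or without medial replicate 2 or 3. Its substrate Mmp2, a gelatinase of mesenchyme, was at 9.38, 9.76 and 9.60 in medial tissue and 9.71, 9.61 and 9.60 in lateral tissue. Those arrays overlapped, and the difference was -0.06 with a 95% interval of -0.40 to 0.28.

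Among the inhibitors, Timp2, which blocks metalloproteases and also docks the Mmp2 precursor to Mmp14, was higher in medial tissue. Its chosen probe set was at 9.29, 9.13 and 9.14 in medial tissue and 8.81, 8.75 and 8.66 in lateral tissue. All medial arrays were above all lateral ones, by 0.45 ± 0.10 (adjusted p = 0.0461). The 4 other probe sets above the filter level differed by 0.25 (no overlap), 0.16, -0.03 and -0.15, and the mean of the probe sets gave 0.11 (adjusted p = 0.646). Leaving out any single array lost this call. The adjusted p was 0.0978, 0.181 and 0.233 without lateral replicate 1, 2 and 3 and 0.107, 0.112 and 0.0854 without medial replicate 1, 2 and 3. It was also lost with centred arrays (adjusted p = 0.346), without the filter (0.0878) and without both arrays of low signal (0.0593), and the sign turned on the deposited values (-0.50).

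Timp3, the inhibitor that stays bound to matrix and also blocks Adam17 and several ADAMTS proteases, ran the other way. It was at 7.42, 6.97 and 7.17 in medial tissue and 7.68, 7.97 and 7.77 in lateral tissue, without overlap. The difference was -0.62 ± 0.14 (adjusted p = 0.0432), and it was -0.72 and -0.70 within the control-signal groups. Its 3 other probe sets gave -0.73 (no overlap), -0.51 and -0.37. The call was lost without lateral replicate 1 (adjusted p = 0.0776), 2 (0.198) or 3 (0.143) and without medial replicate 2 (0.151) or 3 (0.0985). It was also lost with centred arrays (adjusted p = 0.629), the deposited values (0.589), no filter (0.0639) and only the groups compared (0.0538). Timp1, a secreted inhibitor of many metalloproteases, was at 7.42, 7.31 and 7.01 in medial tissue and 6.86, 6.77 and 6.79 in lateral tissue. Its arrays did not overlap, and it did not pass (0.44 ± 0.13, adjusted p = 0.102). It passed without medial replicate 3 (adjusted p = 0.0374) and with array weights (0.00398), and its sign turned on the deposited values (-0.59).

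Adamts3, which removes the amino-terminal propeptide of fibrillar procollagen and takes part in the activation of Vegfc, was the member with the largest lateral excess. Its signal was 5.99, 5.53 and 5.56 in lateral tissue and 4.58, 4.87 and 4.42 in medial tissue, where the mean was below the filter level. No arrays overlapped, and the difference was -1.07 ± 0.19 (adjusted p = 0.0136), with -1.12 within either control-signal group. Adamts3 passed the filter only through these lateral arrays. Of the medial arrays of E10.5 and E11.5 only E10.5 replicate 2 (4.87) reached the filter level. The filter thus favoured a lateral excess, and the call is no independent support of one. Without the filter Adamts3 also passed. Later medial values were also below that level, at 4.65 and 4.12 (E11.5) and 4.55 (E14.5). Leaving out lateral replicate 1 gave adjusted p = 0.0507 and the deposited values 0.589.

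Adamts12, a secreted protease known to cut cartilage oligomeric matrix protein, was at 5.53, 5.26 and 5.43 in lateral tissue and 4.68, 4.92 and 4.59 in medial tissue. At E9.7 lateral and medial values were 5.47 and 5.64. The E10.5 arrays did not overlap and the medial mean again lay below the filter level (-0.68 ± 0.14, adjusted p = 0.0268). Of the 6 arrays left out in turn, medial replicate 2 was the only one whose absence kept the call (adjusted p = 0.0336). For the others the adjusted p was 0.102, 0.0604 and 0.118 without lateral replicate 1, 2 and 3 and 0.0649 and 0.0827 without medial replicate 1 and 3. It was 0.229 with centred arrays, 0.0576 with the trend and robust options and 0.589 on the deposited values. The related Adamts5, a versican and aggrecan protease, did not reach the filter for testing. Of the 6 values only 1 lay above the filter level, with 4.96, 4.16 and 4.21 in lateral tissue and 2.64, 3.94 and 3.76 in medial tissue, with no overlap. Its E9.7 values were 3.93 in lateral and 3.94 in medial tissue.

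**Figure D3:**
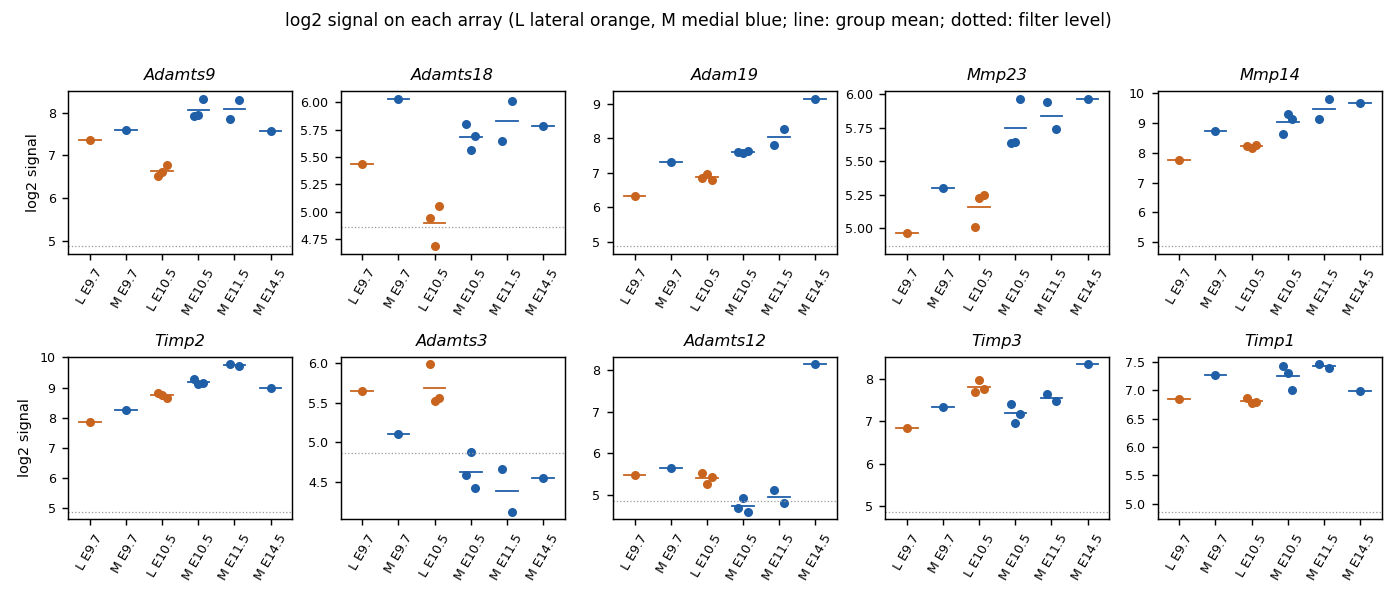
Log2 signal on each array for 8 members that passed the test between medial and lateral tissue at E10.5, with Mmp14 and Timp1, which did not; lateral arrays are orange, medial arrays blue, lines are group means and the dotted line is the filter level. Each panel has its own scale. The E10.5 arrays of the pieces do not overlap in any of the 10 panels, with the medial piece higher in 7 and lower in Adamts3, Adamts12 and Timp3. On the deposited values the sign turned for Adamts18, Adam19, Mmp23, Timp2 and Timp1, and the sign of Mmp14 was not followed there.

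The remaining tested members had no call at E10.5. Adamts20, the versican protease behind the belted coat pattern of mice, was at 7.49 and 7.29 on medial replicates 2 and 3 but at 6.14 on the low-signal replicate 1, against 6.28, 5.99 and 5.64 in lateral tissue (1.01 ± 0.34, adjusted p = 0.173). It passed without medial replicate 1, without both arrays of low signal, with array weights and with control-signal group as a term. Adam10, the main sheddase of Notch, was at 9.16 to 9.62 on the 6 arrays and differed by 0.00 (95% interval -0.33 to 0.34). Adam17, which releases tumour necrosis factor and EGF receptor ligands, differed by 0.16 (-0.21 to 0.53). The neuronal ADAM without protease activity, Adam11, was lower in signal on every medial array (5.48, 5.76 and 5.88 against 6.11, 6.27 and 6.42), at -0.56 ± 0.14 and adjusted p = 0.0655. It passed with the replicate block, with array weights and with control-signal group as a term. Mmp11 at 0.49 ± 0.16 and Adam12 at -0.34 ± 0.14 had arrays that did not overlap and adjusted p of 0.154 and 0.290.

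Markers of other tissues differed between the same pieces. Of 8 epithelial markers 5 were higher in medial tissue and none lower, and their summed linear signal was 2382 to 2690 on medial arrays and 1224 to 1364 on lateral arrays at E10.5. Of 7 endothelial markers 3 were higher and none lower (summed signal 1196 to 1269 against 837.2 to 884.7). Of 3 tested cartilage and bone markers, Col2a1 and Sox9 were lower, with a summed signal of 822.1 to 985.3 over 6 measured markers against 1785 to 1992; Matn1 and Ibsp never reached the filter level. Of 3 tested neuronal markers only Isl1 was higher (2.80, adjusted p = 5.45e-05), a transcription factor that distal arch tissue also expresses. Tubb3 and Elavl3 differed by -0.07 and -0.24 and did not pass. Arch mesenchyme had 2 of 7 markers higher and 2 lower, skeletal muscle 1 and 1 of 9, and none of 7 macrophage and osteoclast or 3 red cell markers passed. The part of these cells in the members' differences was not tested.

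Medial and lateral tissue of E9.7, with 1 array each and no test, had none of 33 counted members at least 2-fold apart. This stands beside 1.76% of the 11252 genes counted, 1.09% higher and 0.667% lower in medial tissue. The members with the largest differences were Adam19, at 7.31 in medial and 6.32 in lateral tissue (0.98), and Mmp14, at 8.72 and 7.75 (0.97). With centred or deposited values both of them lay at least 2-fold apart. Adamts18 was at 6.03 and 5.44, Timp1 at 7.27 and 6.84, Timp2 at 8.26 and 7.86 and Adamts3 at 5.10 and 5.64, each in the same order as at E10.5. Adamts9, the member furthest apart at E10.5, was at 7.60 and 7.36. Timp3 was at 7.34 in medial and 6.85 in lateral tissue, the opposite order to E10.5.

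Set side by side over the first stages, lateral Adamts9 was at 7.36 at E9.7 and at 6.51 to 6.78 at E10.5, while the medial values were 7.60 and 7.93 to 8.33. Lateral Timp3 was at 6.85 and then at 7.68 to 7.97, while medial Timp3 was at 7.34, within its E10.5 range of 6.97 to 7.42. Timp2 was above its E9.7 value on all E10.5 arrays of both tissues, with mean differences of 0.93 in medial and 0.88 in lateral tissue. No member of 37 counted in medial and 38 in lateral tissue lay at least 2-fold beyond every array. In medial tissue 0.977% of all genes did, 0.626% higher and 0.351% lower at E10.5, and in lateral tissue 1.34%, 0.949% higher and 0.390% lower. Without medial E10.5 replicate 1, Adamts20 did so (5.70, then 7.49 and 7.29), and without replicate 3, Adam12 (7.22, then 6.19 and 6.15). The change in the medial minus lateral difference from E9.7 to E10.5 was fitted as an interaction in limma, added after the data were seen, with the single E9.7 arrays assumed to vary like the others. It called 0 of 11968 genes, and at an unadjusted p under 0.05 it gave 232 genes (1.94%) and 3 members. These were Timp3 (-1.11, unadjusted p = 0.00366), Adamts9 (1.20, 0.00553) and Adamts12 (-0.85, 0.0146), each with a limma adjusted p of 1.

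**Figure D4:**
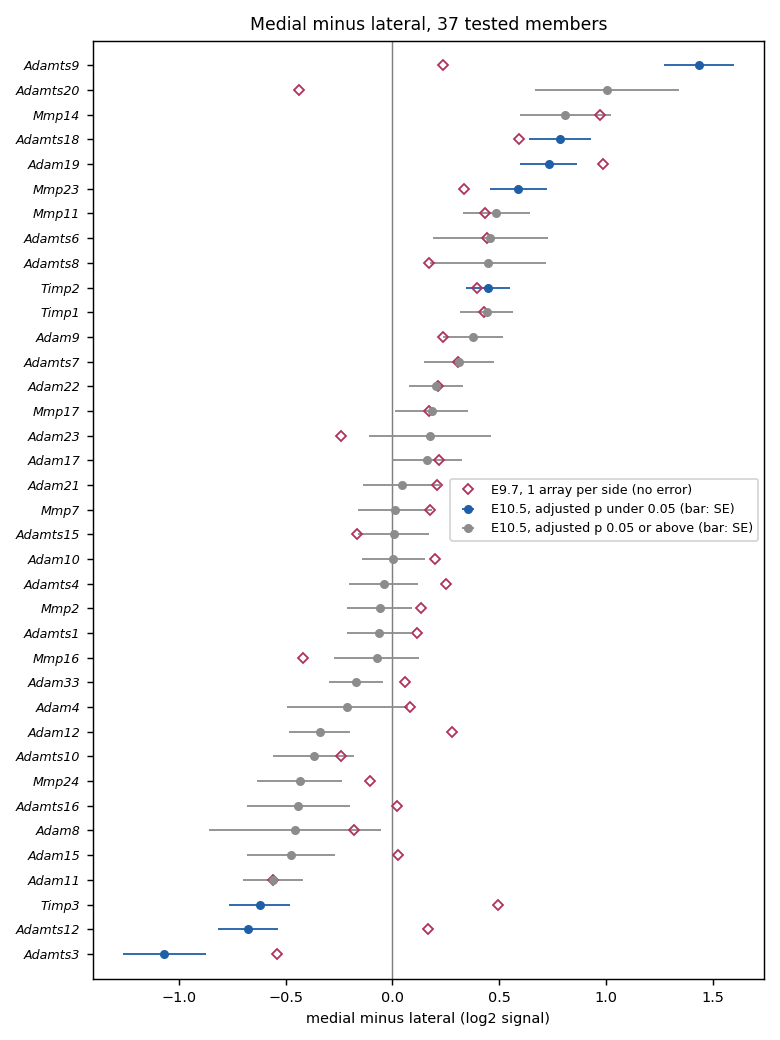
Medial minus lateral log2 signal of the 37 tested members, in order of the E10.5 difference; filled points are E10.5 with standard error (blue where adjusted p was under 0.05, n = 3 arrays per side) and open diamonds are E9.7 with 1 array per side. Adamts9 lies at 1.43 and Adamts3 at -1.07 at E10.5, while the E9.7 diamonds of Timp3 and Adamts12 lie on the other side of 0 from their E10.5 points.

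From E10.5 to E11.5 in medial tissue, 3 of 37 members rose and none fell. They were Adam22, Adamts15 and Timp2. This was 8.11% of the members, near the 6.92% of all tested genes that passed, 4.32% higher and 2.60% lower. At an unadjusted p under 0.05 there were 8 members (21.6%), beside 18.0% of all genes. The median difference of the members was 0.15 and that of all tested genes 0.00. No member passed without E11.5 replicate 2 or on the deposited values, where the median difference of all genes was -0.66.

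Adam22, an ADAM without protease activity that binds Lgi proteins at synapses and nerves, was at 6.69, 6.44 and 6.42 at E10.5 and at 7.28 and 7.49 at E11.5. It was at 5.64 in lateral and 5.86 in medial tissue at E9.7, at 6.46, 6.23 and 6.25 in lateral tissue at E10.5 and at 7.29 at E14.5. The medial groups of E10.5 and E11.5 did not overlap, and the difference over these 3 and 2 arrays was 0.87 ± 0.14 (adjusted p = 0.00622). It was lost without E11.5 replicate 2 (adjusted p = 0.0516), with centred arrays (0.140) and with the mean of both probe sets (0.200), of which the second never reached the filter level. Adamts15, a versican protease linked to muscle fibre formation, was at 4.98, 5.39 and 5.20 at E10.5 and at 6.04 and 6.50 at E11.5. Its other values were 5.19 in lateral and 5.03 in medial tissue at E9.7 and 5.14, 5.37 and 5.03 in lateral tissue at E10.5. In medial tissue it rose by 1.08 ± 0.18 (adjusted p = 0.00789), with 1.11 and 1.07 within the control-signal groups that held both stages. The adjusted p was 0.0637 without E11.5 replicate 2, 0.0541 with array weights and 0.882 on the deposited values.

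Timp2 was the member that passed in both comparisons, which share the medial E10.5 arrays. It was at 9.79 and 9.71 at E11.5, above each E10.5 medial value, a difference of 0.56 ± 0.12 (adjusted p = 0.0205). Its 4 other probe sets above the filter level gave 0.30, 0.52, 0.56 and 0.33. The call was lost without medial E10.5 replicate 2 (adjusted p = 0.0783) or 3 (0.0594) and without E11.5 replicate 1 (0.0946) or 2 (0.0618). It was also lost with centred arrays (adjusted p = 0.846), the mean of the probe sets (0.0801), only the groups compared (0.114) and without both low-signal arrays (0.0514), and the sign turned on the deposited values (-0.14). Timp3 was at 7.64 and 7.47 at E11.5, above its E10.5 medial values, and did not pass (0.37 ± 0.16, adjusted p = 0.266). The other Timp3 probe sets gave 0.25, -0.15 and -0.19, the last of them at the filter level on 1 array. Its direction at this step thus depended on the probe set. Timp1 was at 7.46 and 7.39 (0.18 ± 0.14, adjusted p = 0.612), and at 6.99 at E14.5. On the deposited values both signs turned (-0.31 and -0.52).

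Adam19, Adamts7, Adam23, Mmp17 and Adamts20 had higher values on both E11.5 arrays than on the medial E10.5 arrays and did not pass. Adam19 was at 7.80 and 8.26 after 7.59, 7.58 and 7.62 (0.44 ± 0.15, adjusted p = 0.147). Its second probe set gave 0.20 with overlapping arrays. Adamts7 was at 7.06 and 7.31 after 6.42, 7.01 and 6.90 (0.41 ± 0.18, adjusted p = 0.279). Adam19 and Adamts7 passed with control-signal group as a term. Adam23, a relative of Adam22 that also lacks protease activity, was at 6.40 and 6.20 after 4.63, 5.96 and 5.43 (0.96 ± 0.32, adjusted p = 0.136). A second Adam23 probe set, at the filter level on 10 arrays, gave 0.19 with overlapping arrays, and the first passed in 1 of the alternatives run, without medial E10.5 replicate 2. Mmp17, a metalloprotease anchored by a lipid, was at 6.09 and 5.73 after 5.11, 5.08 and 5.59 (0.65 ± 0.19, adjusted p = 0.0904), and passed in 1, without medial E10.5 replicate 3. Adamts20 was at 7.75 and 8.30 (1.05 ± 0.38, adjusted p = 0.170), and passed with control-signal group as a term. Adam11 (0.03), Mmp14 (0.44), Mmp16 (0.24) and Mmp24 (0.15) had overlapping arrays. Stages did not overlap for 10 of 37 members (27.0%), beside 28.4% of all genes.

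Markers of other tissues changed over the same step. Of 9 skeletal muscle markers 8 rose, and their summed signal was 303.2 to 371.5 on the medial E10.5 arrays and 5870 to 7519 at E11.5. Of 7 tested macrophage and osteoclast markers 5 rose (a sum over 9 of 396.6 to 442.8, then 637.8 to 696.5), with Aif1 below the filter level throughout. All 7 arch mesenchyme markers fell, as did 6 of 8 epithelial and 2 of 7 endothelial markers, while the epithelial marker Krt15 rose by 1.99 (adjusted p = 0.00296). Of 3 tested neuronal markers only Isl1 fell (-0.81, adjusted p = 0.0368), with Tubb3 at -0.30 and Elavl3 at 0.12. Their part in the rise of the 3 members was not tested.

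At E14.5, in the anterior tongue piece, Adamts12 and Adamts5 stood out. Adamts12 was at 8.15, after 5.11 and 4.79 at E11.5, a difference of 3.20 in means. Adamts5 was at 6.83 after 3.76 and 4.37 (2.76). Of its other probe sets, 2 reached the filter level, on the E14.5 array alone, and differed by 2.70 and 1.76. They were picked through the array where they are high, so they are no independent support. Its remaining probe set never reached that level and differed by 0.07. Adamts12 and Adamts5 were the only members at least 2-fold beyond both E11.5 arrays of the 38 counted (5.26%). This share was below the 14.6% of all 12566 genes counted, with 11% higher and 3.63% lower. Here a member counted if 1 of the arrays reached the filter level, which Adamts5 did through the E14.5 array alone. The second probe set of Adamts12 was never above that level. The difference has no replicate check.

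Further members had E14.5 values above or below both E11.5 arrays by less. Adam19 was at 9.15 after 7.80 and 8.26, Adam12, a protease of fusing muscle cells and mesenchyme, at 7.46 after 6.02 and 6.49, and Adamts1, a versican protease, at 8.71 after 7.32 and 7.84. Adamts15 was at 7.25 after 6.04 and 6.50. Mmp16, a membrane metalloprotease, was at 5.32 after 6.90 and 6.31 (-1.29), with other probe sets at -1.26 and, in the opposite sense, 0.30. Timp3 was at 8.35 after 7.64 and 7.47, while Timp2 was at 8.98 after 9.79 and 9.71. The second probe set of Adam19 gave -0.20 where the first gave 1.12. Without E11.5 replicate 1, 4 members lay at least 2-fold apart, with Adamts4 (6.94 after 5.90) and Adamts8 (6.45 after 5.39) added, and without replicate 2 there were 8. Centring each array gave 10 and the deposited values 11.

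At E14.5 probe sets of the same gene disagreed. Relative to E11.5, the 5 Timp2 probe sets above the filter level differed by -0.76, 0.08, 1.25, -0.47 and -2.10, those of Mmp14 by 0.18, -1.87 and 0.88, and those of Adam10 by 0.67, -0.09 and -2.76. The direction of Timp2, Mmp14, Mmp16, Adam10 and Adam19 at E14.5 therefore depended on the probe set. On the E14.5 array the 3′ probe set of β-actin exceeded the 5′ one by 1.22, against 0.26 to 0.49 on the other 10 arrays. Skeletal muscle markers summed to 38050 on this array, epithelial markers to 8356 and macrophage and osteoclast markers to 1962. The bearing of these values on the members was not tested.

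**Figure D5:**
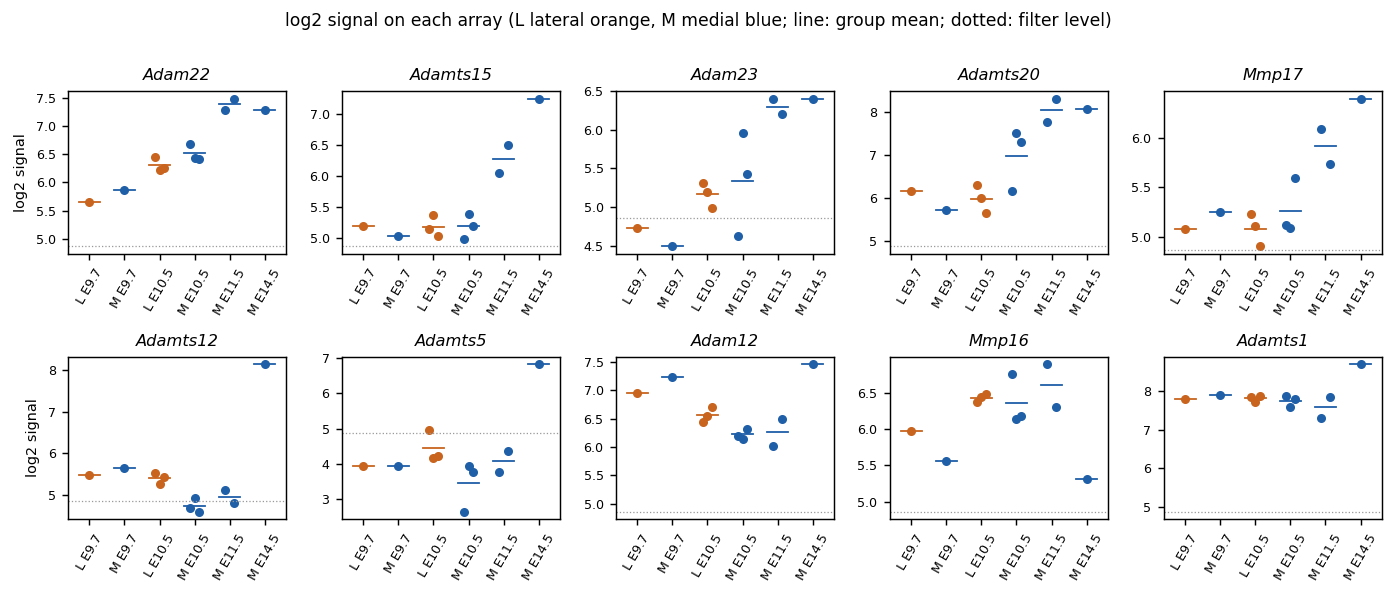
Log2 signal on each array for 10 members that differed between stages or came near it; lateral arrays are orange, medial arrays blue, lines are group means and the dotted line is the filter level. Each panel has its own scale. Adamts12 and Adamts5 reach 8.15 and 6.83 at E14.5, while Adam22 and Adamts15 are higher on both E11.5 arrays than on any E10.5 array.

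Partners of these proteases were counted from lists outside the family. Of 15 tested activators and partners, including Furin, Reck and the tetraspanins that guide Adam10, none passed between medial and lateral tissue at E10.5. From E10.5 to E11.5 Tspan5, an Adam10 partner, rose by 1.23 (adjusted p = 0.00108), and A2m, a broad protease trap, fell by 0.71 (adjusted p = 0.0480). Of 11 tested surface substrates of ADAM proteases, Jag1, a Notch ligand, was higher in medial tissue (1.10, adjusted p = 0.0037) and Cdh2, N-cadherin, lower (-1.27, adjusted p = 0.0288). The Notch ligand Dll1 rose at E11.5 (1.75, adjusted p = 0.00993) and Cdh1, E-cadherin, fell by 1.14 (adjusted p = 0.0325).

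Among 5 tested matrix partners of ADAMTS proteases none passed between the pieces. Vcan, the gene of versican, differed by 0.54 (adjusted p = 0.0532), and Acan, that of aggrecan, was not tested. Hapln1, which links hyaluronan to proteoglycans, fell by 2.14 from E10.5 to E11.5 (adjusted p = 0.000312). No tested gene passed in either comparison among 3 of plasminogen activation, 3 astacin proteases and procollagen enhancers and 2 ADAMTS-like proteins. Of 10 lysosomal cathepsins, Ctsc was higher in medial tissue (0.55, adjusted p = 0.0126) and Ctsc, Ctsk and Ctss rose at E11.5 (0.88, 1.47 and 1.16, adjusted p of 0.00121, 0.00645 and 0.0102).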

How the data were processed

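RNA of 11 samples was measured on Affymetrix arrays. The deposited values are log2 signals of 45101 probe sets, made by the authors with Affymetrix Expression Console 1.1, per the submitters' processing notes; the summarisation algorithm is not given in the sources used here. They ranged from 0.0887 to 14.5 and were quantile normalized over the 11 arrays. A table of the platform's annotation gave 34958 probe sets a single symbol, 932 several and 9211 none, and only the first were used. Each gene was read from its probe set with the highest mean, which gave 18194 genes, and all 60 members matched RefSeq by gene ID.

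Differences were fitted in limma 3.58.1 (R 4.3.3) with a mean for each of 6 groups and 5 residual degrees of freedom, and p-values were adjusted by Benjamini and Hochberg over 11968 genes. All adjusted p-values are from these fits, and the value after ± is the standard error of the fit. Its variance is pooled over the groups with replicates and drawn toward that of all tested genes. Comparisons of pairs of groups with a single array on either side were left untested, and the E9.7 arrays entered a test only in the added interaction. For the untested ones the count is of genes for which all arrays of one group exceeded all of the other by 2-fold or more, among genes at the filter level on at least 1 array compared. The script was tested on simulated data, made from the mean and spread of each gene with independent noise on each array. These data had no low-signal arrays and no control-signal groups and were not normalized, so the shares do not cover such features. Among the 11968, of 67 genes changed 1.5-fold the script called 40.3% between medial and lateral tissue and 31.3% between stages. Of 67 changed 2-fold it called 95.5% and 83.6%. Of the unchanged genes it called 6 and 3.

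Members, gene lists and tests were chosen with earlier results of these data known. Values on every array are given, by rule, for members that passed, for members at least 2-fold apart in an untested comparison and for the TIMPs. Other members given by array (among them Mmp2, Mmp14, Adam11, Adam23, Adamts20 and Mmp17) were chosen after their values were seen, and so were the GC box and the TATA box. Control-signal groups come from clustering the arrays by 45 spiked-in probe sets, with the number of groups set to 4. Replicate numbers correlated at 0.128, -0.294 and 0.478 between medial and lateral deviations at E10.5, so they were not treated as pairs. Between the medial groups of E10.5 and E11.5 they correlated at 0.59 and 0.389. These 2 values are not separate, as the deviations of 2 E11.5 arrays from their mean mirror each other. Replicate 1 was the low-signal array in both groups, so pairing cannot be told apart from low signal. The labels do not pair them. Alternatives were the scaling, filter, probe set rule, limma options, samples fitted, array weights, replicate block, control-signal group and each array left out. Protein sequences were not used here.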

Additional observations from a re-analysis of the deposited data

Results flagged for a closer look

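Medial and lateral tissue differed in the opposite sense at E10.5 and at E9.7 for 3 of the members whose E10.5 arrays did not overlap. Timp3 was at -0.62 in the medial minus lateral difference at E10.5 and at 0.49 at E9.7. Adamts12 was at -0.68 and 0.17, and Adam12 at -0.34 and 0.28. The difference between the stages was tested by an interaction in limma, with 1 array a side at E9.7. It gave unadjusted p of 0.00366, 0.0146 and 0.0597 in that order and an adjusted p of 1 for each, so none of the 3 passed. No group had more than 3 arrays, and none was tested for single outlying arrays.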

How the results depend on the processing

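Between medial and lateral tissue at E10.5, 8 members and 554 genes passed. The deposited values gave 0 and 2, centred arrays 3 and 358, array weights 22 and 2833, and control-signal group as a term 15 and 1254. No filter gave 5 members and the mean of probe sets 4. Leaving out an array gave 2 to 8 members and 308 to 538 genes. From E10.5 to E11.5, 3 members and 828 genes passed. The deposited values gave 0 and 1, centred arrays 1 and 455, and the control-signal term 9 and 2182. The mean of probe sets gave 1 member and only the groups compared 482 genes. Leaving out an array gave 0 to 3 members and 515 to 814 genes. The replicate block gave 10 members and 779 genes between the pieces and 3 and 868 between stages, with Mmp14 and Adam11 added between the pieces, and every member called without the block was called with it.

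Signs on the deposited values were followed only for the members called and Timp1 to Timp3. On these values the medial minus lateral sign turned for Adam19 (-0.31), Adamts18 (-0.38), Mmp23 (-0.57), Timp2 (-0.50) and Timp1 (-0.59). The stage sign turned for Timp2 (-0.14), Timp1 (-0.52) and Timp3 (-0.31). There the medians of all genes were -1.03 and -0.66. Centring moved the first of these medians to 0.11.

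Without a test, at E9.7 0 members were 2-fold apart, and 2 were with deposited or centred values. From E9.7 to E10.5 in medial tissue the count of 0 became 1 with centring, 1 when the low-signal arrays were left out and 0 to 1 with a single array left out. At E14.5 the count of 2 became 11 with deposited values, 10 with centring, 4 without the array of low signal and 4 to 8 with an array left out. The causes were not tested. Some members have no value under the stricter filter or the mean of probe sets, as fewer genes pass. Signal near or below the filter level limits Adamts3, Adamts12, Adamts18 and Adamts5.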
